A study of Mus musculus with 16 samples.

Results

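The vacuolar H+-ATPase (V-ATPase) was followed here through 10 of its genes, chosen as a fixed list of symbols: Atp6v0a1, Atp6v0a2, Atp6v0b, Atp6v0c and Atp6v0d1 of the membrane sector V0, Atp6v1a, Atp6v1b2, Atp6v1c1 and Atp6v1h of the peripheral sector V1, and the accessory subunit Atp6ap1. All 10 were found among the 20622 genes of the total RNA tables and among the 15235 genes with a counted ribosome-protected fragment (RPF) transcript, and all 10 passed the filter on low counts in both kinds of library.

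The data came from KM cells, cultured from lung tumours of a male mouse carrying LSL-MYC, human MYC, on both Rosa26 alleles (LSL-MYC/LSL-MYC), switched on by Cre under the surfactant protein C promoter (Ad5-SPC-CRE). KMNTC cells carried a lentiCRISPR vector with a non-targeting guide and KM4A2cr cells the same vector with a guide against the coding region of Eif4a2, which encodes the RNA helicase eIF4A2, and both were selected in puromycin. RPFs, the mRNA stretches shielded by 80S ribosomes from RNase I, and cytoplasmic total RNA were taken from the same lysate in 4 replicates per line, each an independent experiment on its own day, giving 16 libraries. The cells were untreated. Both lines descend from 1 mouse, and KM4A2cr is a pool of eIF4A2-negative clones, so differences between the lines include any that arose in selecting them. The comparison asks whether loss of eIF4A2 changed the abundance of V-ATPase mRNAs, their occupancy by ribosomes, or the balance between the 2 sectors.

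V-ATPases are rotary proton pumps that acidify lysosomes, endosomes and secretory vesicles. The V1 sector sits in the cytosol and hydrolyses ATP, which turns a central stalk and the proteolipid ring of V0, and protons cross the membrane between that ring and subunit a. Cells regulate the pump by reversibly detaching V1 from V0, and the assembled pump also acts in amino acid sensing by mTORC1 on the lysosome. MiT/TFE transcription factors control many V-ATPase genes through an E-box.

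E-box letters were looked for in the RefSeq promoters of the members (build GRCm38.p6, 250 bases before to 50 after the start). Of the 10 members, 6 were matched by symbol: Atp6v0a1, Atp6v0b, Atp6v0c, Atp6v0d1, Atp6v1a and Atp6ap1. CACGTG, which reads the same on both strands, was present for Atp6v0b, Atp6v0d1 and Atp6v1a, and so was CACGTG with a T before it or an A after it. Among all 32851 promoters of the table, 7.15% held the core and 3.77% the longer form, which contains the core. Counted per gene, as for the members, these shares were 8.09% and 4.29% of 27025 genes. Of the other V-ATPase subunit genes, 13 were matched and 1, Atp6v0e, held both forms. The windows below run from 150 bases before to 20 after the listed start of each, on the minus strand, and are shown because they place the motif in genes of both sectors, with the core in capitals. They lie at chr4:117887310-117887479 for Atp6v0b, chr8:105566045-105566214 for Atp6v0d1 and chr16:44139240-44139409 for Atp6v1a.
Atp6v0b: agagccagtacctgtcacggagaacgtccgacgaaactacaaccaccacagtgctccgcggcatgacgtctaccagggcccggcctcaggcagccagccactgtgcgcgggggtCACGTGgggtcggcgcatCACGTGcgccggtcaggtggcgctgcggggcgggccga
Atp6v0d1: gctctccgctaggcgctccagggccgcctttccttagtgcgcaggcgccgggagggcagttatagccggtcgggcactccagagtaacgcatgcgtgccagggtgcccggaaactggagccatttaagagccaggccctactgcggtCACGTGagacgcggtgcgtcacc
Atp6v1a: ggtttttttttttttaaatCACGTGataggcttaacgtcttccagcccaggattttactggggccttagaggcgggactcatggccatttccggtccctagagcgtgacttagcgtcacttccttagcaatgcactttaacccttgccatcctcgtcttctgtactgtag

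The core began 36 and 18 bases before the start in Atp6v0b, 3 bases before it in Atp6v0d1 and 131 bases before it in Atp6v1a. With all replicates, none of these 3 genes passed the test between the lines in RPFs or total RNA, beside 10.3% and 6.13% of all genes. Without replicate 4, Atp6v0b was called higher in RPFs (log2 change 0.34, edgeR adjusted p = 0.0284) and total RNA (0.37, edgeR adjusted p = 0.00927). Atp6v0d1 and Atp6v1a were not called there. In that setting 19.1% of all genes in RPFs and 17.8% in total RNA were called higher.

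Libraries held between 4512403 and 9621848 RPF counts and between 5350920 and 9312624 total RNA counts. Eif4a2 itself was at 97.6, 122, 99.7 and 388 CPM (counts scaled to a common library size with TMM factors) in RPFs of KMNTC replicates 1 to 4 and at 50.9, 88.3, 74.7 and 345 CPM in KM4A2cr. It was lower in KM4A2cr in all 4 pairs (log2 change -0.49, SE 0.149, edgeR adjusted p = 0.0941; without replicate 4, -0.60 and 0.00304), whereas its total RNA did not pass the test (log2 change -0.18, adjusted p = 0.504). A guide can disrupt a protein without removing its mRNA, so these levels are a partial check of the labels. Replicate 4 had the lowest depth of each line in both kinds of library and the highest Eif4a2, so results are also given without it. The epithelial markers Epcam, Cdh1, Krt8 and Krt18 were well represented, summing to 5848 to 10592 CPM in RPFs, and both Epcam (log2 change 0.51, adjusted p = 0.0768) and Cdh1 (0.44, adjusted p = 0.0843) were higher in KM4A2cr RPFs, while Krt8 (-0.05, adjusted p = 0.847) and Krt18 (-0.10, adjusted p = 0.668) did not pass. Without replicate 4, Krt18 was called lower in total RNA. The fibroblast list summed to 2.62 to 21.4 CPM in RPFs, with 1 of 6 genes tested, Pdgfra, which did not pass. The calls of Epcam, Cdh1 and Eif4a2 were lost without replicate 1, 2 or 3. In bulk libraries such as these, fewer cells of a type and less RNA per cell cannot be told apart. The alveolar type II markers Sftpc and Sftpb had 0 counts in every total RNA library, and no RPF transcript of them was listed.

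Expressed per transcript length, both proteolipids, Atp6ap1 and Atp6v0a1 were the most abundant of the members, and the other V0 members lay among those of V1. In KMNTC total RNA the proteolipid Atp6v0c led at 305 TPM ± 51.6 (SD, n = 4), followed by the proteolipid Atp6v0b at 193 ± 65.1, Atp6ap1 at 191 ± 31.7 and Atp6v0a1 at 106 ± 16.4. Atp6v1c1 followed at 49.6 ± 10.9 TPM, and the lowest Atp6v0a1 library (89.7 TPM) was above the highest Atp6v1c1 library (58.3 TPM). Atp6v1h (37.0 ± 9.16), Atp6v1a (35.9 ± 9.07), Atp6v0d1 (30.3 ± 8.20), Atp6v0a2 (29.2 ± 8.41) and Atp6v1b2 (20.1 ± 5.96) came after it, and each overlapped its neighbour in this order. Atp6v0c and Atp6v0b overlapped too, although Atp6v0c was the higher in each of the 4 libraries, as did Atp6v0b and Atp6ap1, while every Atp6ap1 library was above every Atp6v0a1 library. In KM4A2cr the same 4 genes led, at 359 ± 119 TPM for Atp6v0c, 226 ± 67.3 for Atp6ap1, 203 ± 68.0 for Atp6v0b and 116 ± 28.4 for Atp6v0a1. This order covers the listed members and not the whole sectors. In KMNTC the other V1 genes tested had means of 326 (Atp6v1f), 159 (Atp6v1g1), 135 (Atp6v1e1) and 26.9 TPM (Atp6v1d). The other V0 genes tested had means of 600 (Atp6v0e) and 9.31 TPM (Tcirg1).

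Several subunits have paralogues with restricted expression, and these were scarce. Among the genes for subunit a, Atp6v0a1 made up 63.5% to 79.9% of the summed TPM over the 8 libraries and Atp6v0a2, the form associated with Golgi and endosomes, 14.0% to 32.2%. Tcirg1, which encodes the a3 form of lysosomes and osteoclasts, contributed 2.58% to 12.6%, and Atp6v0a4, the renal form, at most 0.749%. Tcirg1 was highest in replicate 4 of both lines. Atp6v0d2 had 0 TPM in every library, Atp6v1b2 supplied at least 98.9% of subunit B and Atp6v1c1 at least 99.0% of subunit C.

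**Figure D1:**
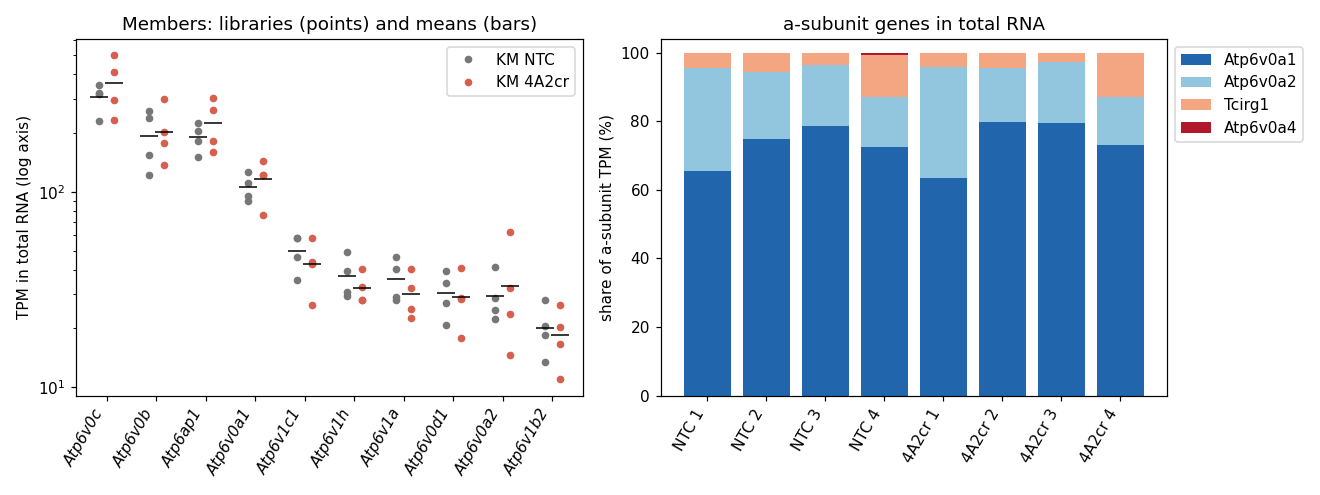
Left, TPM in total RNA on a log axis for each member, with 4 libraries per line as points and their mean as a bar. Right, share of the summed TPM of the 4 subunit a genes in each library (%), where Atp6v0a1 holds 63.5% to 79.9%.

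In RPFs, 2 of the 10 members passed the test at an adjusted p of 0.1, and both encode the membrane-embedded subunit a that forms the proton path beside the proteolipid ring. Both were higher in KM4A2cr. Across all 10291 genes tested, 6.6% passed in this direction and 10.3% in either.

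Atp6v0a1 was at 229.8, 195, 338 and 404 CPM in KMNTC replicates 1 to 4 and at 407, 326, 502 and 413 CPM in KM4A2cr. The first 3 pairs rose 1.77-fold, 1.67-fold and 1.48-fold, the last was nearly level at 1.02-fold, and the groups overlapped, with KMNTC replicates 3 and 4 above KM4A2cr replicate 2. The fitted log2 change was 0.54 (SE 0.154, edgeR adjusted p = 0.0821).

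Atp6v0a2 was at 80.0, 22.7, 49.5 and 48.6 CPM in KMNTC and at 132, 35.1, 68.9 and 52.2 CPM in KM4A2cr. Each KM4A2cr library exceeded its own KMNTC partner, by 1.64-fold, 1.55-fold, 1.39-fold and 1.07-fold, yet the replicates of each line spanned a wider range than any pair, with replicate 1 high and replicate 2 low in both lines. The fitted log2 change was 0.49 (SE 0.140, edgeR adjusted p = 0.0831).

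Both calls depended on the set of replicates and on the model. Leaving out replicate 1, 2 or 3 ended both, with edgeR adjusted p of 0.270, 0.390 and 0.345 for Atp6v0a1 and 0.275, 0.391 and 0.327 for Atp6v0a2. The log2 changes were then 0.45, 0.48 and 0.56 for Atp6v0a1 and 0.41, 0.45 and 0.52 for Atp6v0a2, and the genes called in the whole table fell from 1062 to 232, 123 and 32. Leaving out replicate 4 gave adjusted p of 0.000361 and 0.00152, with 3469 genes called. Upper quartile scaling also ended both calls (edgeR adjusted p of 0.103 and 0.105), and scaling by library size alone ended that of Atp6v0a2 (0.139). Without the replicate block the adjusted p was 0.998 for both and no gene of the table passed.

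The proteolipids turn with the rotor and carry the protons. Atp6v0b was at 208, 86.0, 145 and 274 CPM in KMNTC RPFs and at 290.5, 110.1, 163 and 292 CPM in KM4A2cr, higher in all 4 pairs by 1.07-fold to 1.39-fold (log2 change 0.27, SE 0.126, edgeR adjusted p = 0.226). Atp6v0c was at 314, 206, 394 and 403 CPM against 417, 286, 393 and 354 CPM, higher in pairs 1 and 2 and not in pairs 3 and 4 (log2 change 0.17, SE 0.147, edgeR adjusted p = 0.515). Neither passed the test. Atp6v0d1, a soluble V0 subunit that couples the ring to the central stalk, stayed between 44.3 and 60.3 CPM in all 8 libraries (log2 change 0.03, adjusted p = 0.933).

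No V1 member passed the test in RPFs. Atp6v1a, which holds the catalytic ATP site, ranged from 37.1 to 60.9 CPM in KMNTC and from 38.3 to 59.0 CPM in KM4A2cr (log2 change -0.06, adjusted p = 0.825). Its non-catalytic partner Atp6v1b2 was at 51.4, 63.2, 48.0 and 35.4 CPM in KMNTC and at 35.1, 63.6, 46.1 and 26.6 CPM in KM4A2cr. The value was lower in pairs 1 and 4 and close to level in pairs 2 and 3 (log2 change -0.24, SE 0.142, edgeR adjusted p = 0.339). Atp6v1c1 and Atp6v1h, which take part in holding V1 to V0 and in silencing detached V1, had log2 changes of 0.03 (adjusted p = 0.918) and 0.08 (adjusted p = 0.724).

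Atp6ap1, an accessory membrane protein needed for assembly of V0, was the member with the most RPF counts. It was at 689, 515, 925 and 1162 CPM in KMNTC and at 875, 649, 901 and 1139 CPM in KM4A2cr. Pairs 1 and 2 were 1.27-fold and 1.26-fold higher and pairs 3 and 4 were level at 0.974-fold and 0.980-fold (log2 change 0.15, SE 0.131, edgeR adjusted p = 0.516).

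**Figure D2:**
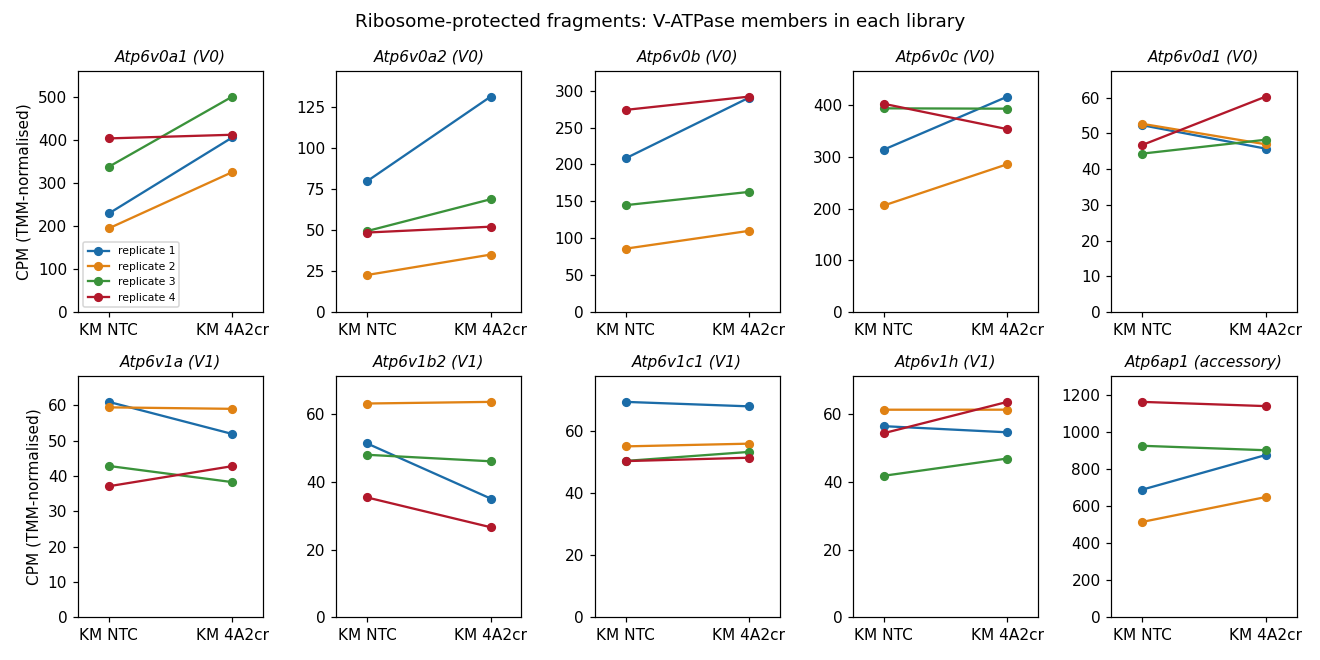
CPM in RPFs for each member, with 1 line joining the KMNTC and KM4A2cr libraries of each replicate. Atp6v0a1, Atp6v0a2 and Atp6v0b are higher in KM4A2cr in all 4 pairs, and the 4 V1 members lie between 26.6 and 69.4 CPM.

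In total RNA none of the 10 members passed the edgeR test, against 6.13% of the 10880 genes tested. At an unadjusted p of 0.05, 2 members passed, beside 1995 of the 10880 genes, and DESeq2 called 0 members. Of the V0 members, 5 of 5 had a fitted change above 0, from 0.09 for Atp6v0d1 to 0.35 for Atp6v0c, beside 51.6% of all genes. Above 0 in all 4 pairs were 0 of the 10 members, beside 12.4% of all genes.

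Atp6v0c mRNA was at 174, 97.4, 160.0 and 198 CPM in KMNTC and at 257, 131, 219 and 192 CPM in KM4A2cr (log2 change 0.35, SE 0.139, edgeR adjusted p = 0.206). Atp6ap1 mRNA was at 231, 145, 209.9 and 314 CPM against 358, 186, 324 and 298 CPM (log2 change 0.39, SE 0.153, edgeR adjusted p = 0.209). Atp6v0a1 mRNA was at 160.0, 144, 228 and 241 CPM against 228, 194, 280.3 and 223 CPM (log2 change 0.28, SE 0.141, edgeR adjusted p = 0.325). In these 3 genes, as in Atp6v0a2 and Atp6v0b, replicates 1 to 3 were higher in KM4A2cr and replicate 4 was lower. Some of these steps were nearly level, as for Atp6v0a2 in replicate 2 (1.02-fold) and Atp6v0c in replicate 4 (0.971-fold).

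The folds of replicate 4 were 0.927 for Atp6v0a1, 0.883 for Atp6v0a2, 0.926 for Atp6v0b, 0.971 for Atp6v0c and 0.948 for Atp6ap1. Without replicate 4, these 5 members passed the test in total RNA, where 17.8% of 10941 genes did so in the same direction. In RPFs, 4 members then passed, namely Atp6v0a1, Atp6v0a2, Atp6v0b and Atp6v0c, against 19.1% of 10376 genes. The fibroblast marker Pdgfra was then also called higher in both kinds of library and Cd68 in total RNA, and their part in the members' values was not tested. The V1 members ranged from -0.09 to 0.03 in total RNA with all replicates, and none passed with or without replicate 4.

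**Figure D3:**
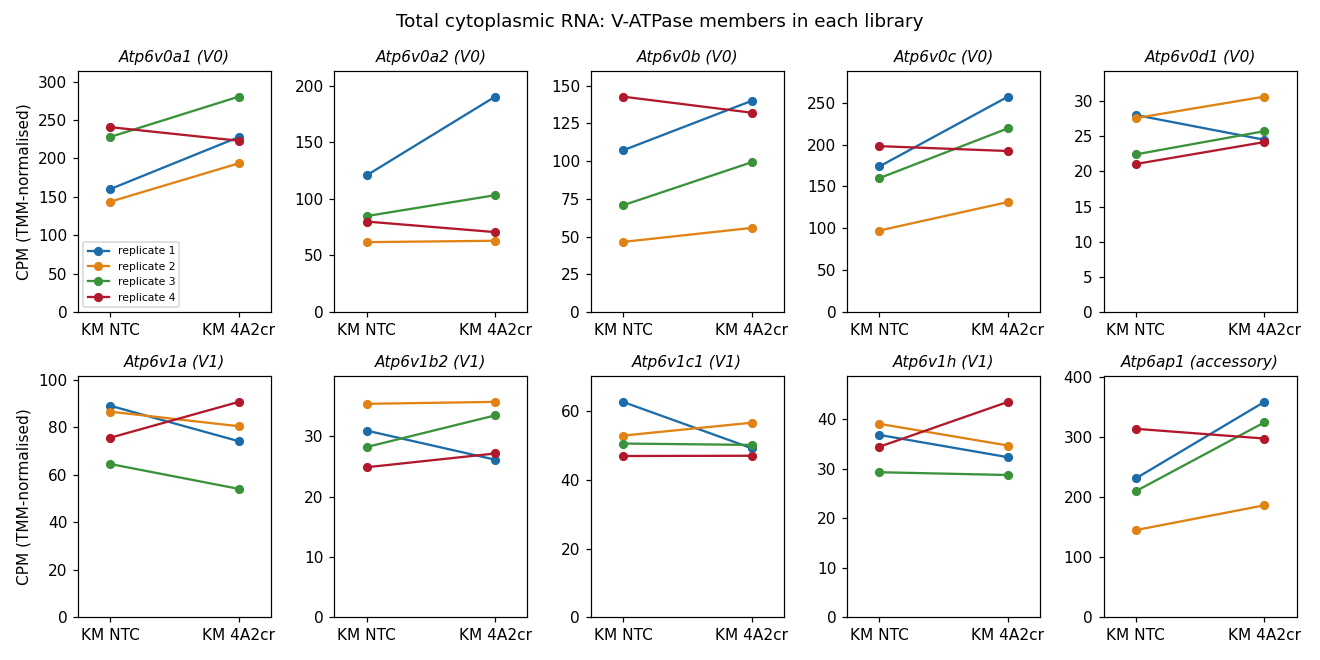
CPM in total RNA for each member, with 1 line joining the KMNTC and KM4A2cr libraries of each replicate. In Atp6v0a1, Atp6v0a2, Atp6v0b, Atp6v0c and Atp6ap1, replicates 1 to 3 slope upwards and replicate 4 slopes downwards. Atp6v0a2 in replicate 2 (1.02-fold) and Atp6v0c in replicate 4 (0.971-fold) are nearly level.

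Translational efficiency, the change in RPFs beyond the change in total RNA, was tested as an interaction over all 16 libraries. None of the 10 members passed, against 2.91% of 9989 genes. At an unadjusted p of 0.05, 3 members passed, beside 1410 of the 9989 genes, and DESeq2 called 0 members. Among the members, the highest values were 0.26 for Atp6v0a1 (SE 0.0913, edgeR adjusted p = 0.160) and 0.26 for Atp6v0a2 (SE 0.109, edgeR adjusted p = 0.255), both above 0 in 4 of 4 pairs. This did not extend to Tcirg1, a subunit a gene outside the members, at -0.19 (SE 0.149, edgeR adjusted p = 0.605) and above 0 in 1 of 4 pairs. Atp6v1b2 (-0.25, SE 0.125, edgeR adjusted p = 0.379) and Atp6ap1 (-0.23, SE 0.108, edgeR adjusted p = 0.323) had the lowest, and Atp6v1b2 was below 0 in 4 of 4 pairs. Without replicate 4, Atp6v0a1 and Atp6ap1 passed in opposite directions, against 6.68% of 10072 genes. Members of the same sector thus stood on both sides of 0, with V0 members between -0.18 and 0.26 and V1 members between -0.25 and 0.11.

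**Figure D4:**
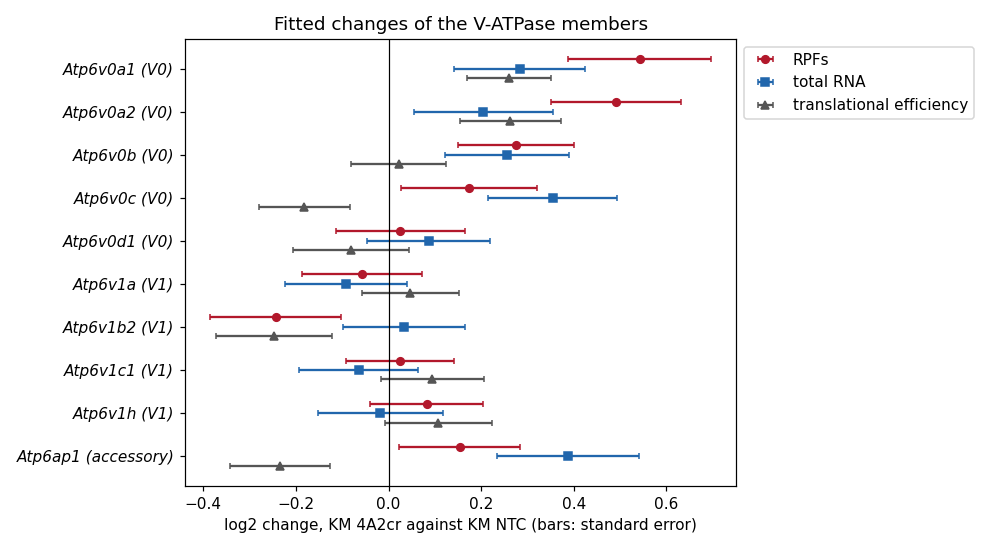
Fitted log2 change of each member between KM4A2cr and KMNTC in RPFs, total RNA and translational efficiency, with bars of 1 standard error. Atp6v0a1 and Atp6v0a2, at 0.54 and 0.49 in RPFs, are the members that passed the test.

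The 2 sectors were set side by side as a description, since members are not replicates. In RPFs the median log2 change was 0.27 over the 5 V0 members and -0.02 over the 4 V1 members, beside -0.01 over all genes. V0 members were above 0 in 5 of 5 cases and V1 members in 2 of 4, beside 48.9% of all genes. The other V0 subunit genes tested, Tcirg1 (-0.11, adjusted p = 0.725) and Atp6v0e (0.03, adjusted p = 0.941), had a median of -0.04 in RPFs. Of the 10 members, 3 were above 0 in all 4 pairs, all of them in V0, beside 14.1% of all genes. In total RNA the medians were 0.26 for V0 and -0.04 for V1, beside 0.01 over all genes. There the other V0 genes had a median of 0.19, with Tcirg1 at 0.10 (edgeR adjusted p = 0.812) and Atp6v0e at 0.29 (edgeR adjusted p = 0.251). Atp6v0e was above 0 in all 4 pairs. No member had groups that did not overlap, beside 2.13% of genes in RPFs and 1.97% in total RNA.

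Within each library, the summed CPM of the 5 V0 members was divided by that of the 4 V1 members. In RPFs this ratio was 3.72, 2.36, 5.31 and 6.64 in KMNTC replicates 1 to 4 and 6.17, 3.35, 6.37 and 6.35 in KM4A2cr. The pairs thus changed 1.66-fold, 1.42-fold, 1.20-fold and 0.956-fold, and the groups overlapped. In total RNA the ratio was 2.69, 1.76, 3.28 and 3.76 in KMNTC and 4.62, 2.29, 4.38 and 3.08 in KM4A2cr. Here the pairs changed 1.72-fold, 1.3-fold, 1.33-fold and 0.821-fold, so replicate 4 went the other way in both kinds of library. With 4 pairs, an exact 2-sided sign-flip test cannot give a p below 0.125, and no p is given. Since CPM is not per length, only the change of this ratio is read, not its level.

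**Figure D5:**
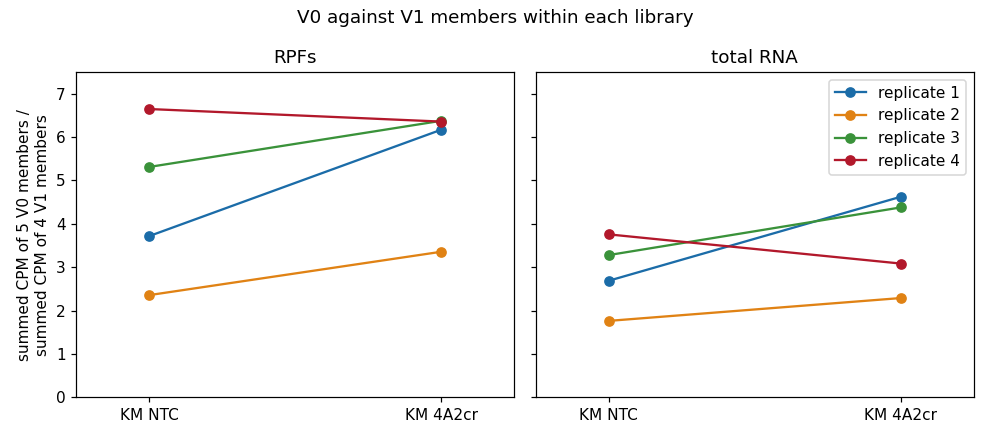
Summed CPM of the 5 V0 members divided by summed CPM of the 4 V1 members in each library, for RPFs (left) and total RNA (right), with 1 line per replicate. Replicates 1 to 3 rise from KMNTC to KM4A2cr and replicate 4 falls.

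The members also differed in how they varied between replicates, given here by position in the membrane, a grouping chosen after the values were seen. The mean of the 2 lines in log2 CPM spanned 0.70 to 1.85 over the 4 replicates in RPFs for the membrane-embedded members Atp6v0a1, Atp6v0a2, Atp6v0b, Atp6v0c and Atp6ap1. It spanned 0.20 to 1.04 for the soluble members Atp6v0d1, Atp6v1a, Atp6v1b2, Atp6v1c1 and Atp6v1h. These ranges overlapped, since Atp6v1b2 (1.04) was above Atp6v0a1 (0.71), Atp6v0c (0.70) and Atp6ap1 (0.99), and the median over all genes was 0.92. Replicate 2 was the lowest for all 5 membrane-embedded members in both RPFs and total RNA. In total RNA the spans were 0.60 to 1.43 (median 0.90) and 0.24 to 0.50 (median 0.41), beside a median of 0.81 over all genes.

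Of the 15 other V-ATPase subunit genes, 7 passed the filter, and 0 passed the edgeR test in RPFs, total RNA or translational efficiency. At an unadjusted p of 0.05 these counts were 0, 1 and 2, and DESeq2 called 0 in each. Over all genes, 2411 of 10291, 1995 of 10880 and 1410 of 9989 were under that unadjusted p. Without replicate 4, Atp6ap2 was called higher in RPFs, Atp6v0e and Atp6ap2 higher and the V1 gene Atp6v1f lower in total RNA, and Atp6v0e lower in translational efficiency. Tcirg1 was at 20.0 to 29.6 CPM in RPFs of replicates 1 to 3 of both lines and at 112 and 93.1 CPM in replicate 4 of KMNTC and KM4A2cr. The macrophage list summed to 121 to 208 CPM in RPFs of replicates 1 to 3 and to 819 and 714 CPM in replicate 4 of KMNTC and KM4A2cr, of which Cd68, a lysosomal membrane protein that is not restricted to macrophages, made up 776 and 694 CPM. Cd14, the other macrophage marker tested, went the other way. In RPFs it was lowest in replicate 4, at 41.1 CPM in KMNTC (others 45.5 to 90.4) and 19.1 CPM in KM4A2cr (others 54.2 to 79.0). In total RNA it was also lowest there, at 11.5 and 6.90 CPM. Lyz2 and Adgre1 were at or near 0 throughout, and the part of other cell types in the Tcirg1 values was not tested.

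Most assembly and regulatory factors of the pump did not pass the test. Of 11 listed genes, 10 were tested. In RPFs 1 of 10 passed, beside 10.3% of all genes, in total RNA 1 of 10, beside 6.13%, and in translational efficiency 2 of 10, in opposite directions, beside 2.91%. Oxr1, a TLDc protein of a family that binds V1, was at 18.7, 22.1, 24.4 and 23.3 CPM in KMNTC RPFs and at 26.1, 30.6, 35.5 and 30.7 CPM in KM4A2cr. These groups did not overlap (log2 change 0.47, SE 0.122, edgeR adjusted p = 0.0650), total RNA was level (log2 change -0.02, adjusted p = 0.968), and translational efficiency was higher by 0.50 (SE 0.115, edgeR adjusted p = 0.0368). For Oxr1, total RNA was summed over 7 isoforms, whereas RPFs were counted on 1 transcript.

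Dmxl2, a subunit of the RAVE-like complex that reassembles V1 onto V0, was higher in total RNA, at 19.6, 26.4, 21.7 and 16.6 CPM against 24.2, 41.9, 37.8 and 35.7 CPM (log2 change 0.71, SE 0.149, edgeR adjusted p = 0.0329). Rogdi, of the same complex, was lower in translational efficiency (-0.89, SE 0.268, edgeR adjusted p = 0.0984) on 2.12 to 6.67 CPM of total RNA. The Oxr1 call in RPFs was also lost with DESeq2 (adjusted p = 0.103). In translational efficiency DESeq2 called Oxr1 (adjusted p = 0.0473) and gave no adjusted p for Rogdi. The Oxr1 and Rogdi calls were lost without replicate 1, 2 or 3, and the Dmxl2 call without replicate 2 or 3.

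Lysosomal genes outside the pump were set beside it. Of 13 nutrient-sensing genes, 11 were tested. The edgeR test called 0 in RPFs and 0 in total RNA, beside 10.3% and 6.13% of all genes. In translational efficiency it called 1 of 11, beside 2.91%. This was Rragc, a Rag GTPase that recruits mTORC1 to lysosomes (higher by 0.44, SE 0.103, edgeR adjusted p = 0.0425). Rragc lost that call without replicate 1, 2 or 3. Without replicate 4, Lamtor2 was called lower in RPFs and total RNA. Of 10 lysosomal and endosomal ion channel genes, all tested, Clcn4, an endosomal chloride-proton exchanger, was higher in RPFs (0.61, SE 0.134, edgeR adjusted p = 0.0381), also lost without replicate 1, 2 or 3. That is 1 of 10 genes, beside 6.6% of all genes called higher and 10.3% in either direction. DESeq2 called 3 of the 10, beside 958 of 10291 genes. Clcn4 was at 52.5, 26.0, 49.1 and 25.8 CPM in KMNTC and at 77.2, 43.5, 85.8 and 31.7 CPM in KM4A2cr. The median of this list was 0.29 in RPFs and 0.37 in total RNA, with 8 and 9 of 10 genes above 0. Without replicate 4, edgeR called 5 of the 10 higher in RPFs, beside 19.1% of all genes, and 8 of the 10 higher in total RNA, beside 17.8%. The membrane-embedded members were therefore not alone in being called higher in that setting. Of the 4 MiT/TFE factors, 1 was tested in RPFs and 2 in total RNA, and the edgeR test called 0 in each, as did DESeq2 and an unadjusted p of 0.05.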

How the data were processed

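Replicates and groups were taken from the sample titles. RPF reads were trimmed with Cutadapt 1.18, deduplicated with UMI-tools 1.0.1 and aligned with BBmap to 1 transcript per gene, the most abundant one (GENCODE vM27), and raw counts over the coding region, less codons at either end, were deposited. Total RNA was aligned with Bowtie2 2.3.5.1, and expected counts and TPM per isoform from RSEM 1.3.3 were deposited. Expected counts were summed per gene and rounded, and TPM was summed per gene. The 2 kinds of library were normalised separately, so a change of all mRNA or footprints leaves no trace, and counts give counting precision only.

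Genes were tested over the whole table with edgeR 4.0.16 in R 4.3.3 (filterByExpr, TMM, quasi-likelihood test, Benjamini-Hochberg, threshold 0.1), with cell line and replicate as terms. Translational efficiency was the interaction of line and kind in 1 model over 16 libraries with the lysate as a term. Scripts were tested on simulated data. Same-numbered libraries deviated together, with correlations of 0.575 to 0.782 in RPFs and 0.611 to 0.756 in total RNA, which, as the design describes separate days, was taken as pairing. Alternatives were no block, other scalings, filters and thresholds, counts of the RPF isoform only, DESeq2 1.42.0, and leaving out each replicate.

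The members and lists were chosen with earlier results of these data known. Named beside the members were list genes that passed the test, and Eif4a2, Tcirg1 and Cd68, the last 2 picked after their values were seen. Other list genes, such as Krt8, Krt18, Pdgfra, Atp6v0e and Cd14, were also named after their values were seen. Protein sequences and coding lengths were not used here. A further allele of the mouse, shared by both lines, is not reported here.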

Additional observations from a re-analysis of the deposited data

Results flagged for a closer look

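Outlying libraries were looked for in 80 groups of 4 libraries. These covered the members, Eif4a2, Tcirg1, Cd68 and the list genes that passed the test with all replicates. Other genes named here, such as Krt8, Krt18, Pdgfra, Atp6v0e and Cd14, were not included. Of the groups, 11 held a library whose gap to the next exceeded Dixon's 95% critical value, and 0 of them were from the 10 members. Chance flags about 1 in 20 groups, but 7 of the 11 were from Tcirg1 and Cd68, which were named after their values were seen, so the count is not set against that rate. Replicate 4 was the high library in 10 of the 11. For Tcirg1 it was at 112 CPM in KMNTC RPFs (others 24.1 to 29.6), 93.1 CPM in KM4A2cr RPFs (others 20.0 to 28.9) and 34.6 CPM in KMNTC total RNA (others 8.40 to 8.89). For Cd68 it was at 776 CPM in KMNTC RPFs, 694 CPM in KM4A2cr RPFs, 161 CPM in KMNTC total RNA and 152 CPM in KM4A2cr total RNA. For Eif4a2 it was at 388 CPM in KMNTC RPFs, 345 CPM in KM4A2cr RPFs and 523 CPM in KMNTC total RNA. The remaining library was replicate 2 of KM4A2cr, where Cdh1 total RNA was low at 2091 CPM (others 2943 to 3113).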

How the results depend on the processing

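The count of members called in RPFs was 2 and became 0 without the replicate block, 0 with upper quartile scaling, 0 at a threshold of 0.05 and 1 with library size only (Atp6v0a1), and ran from 0 to 4 on leaving out each replicate. It ran from 0 to 5 in total RNA and from 0 to 2 in translational efficiency, which reached 1 at a threshold of 0.2 (Atp6v0a1). Replicate 4 gave the upper end each time. The replicate block changed no other member call. The V1 median in RPFs moved to -0.15 with library size only, which shifted the median of all genes to -0.14.

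Members near 0 changed sign. With library size only these were Atp6v0d1 (-0.10), Atp6v1c1 (-0.11) and Atp6v1h (-0.048) in RPFs, and Atp6v0d1 (-0.069) and Atp6v1b2 (-0.12) in total RNA. With upper quartile scaling they were Atp6v0d1 (-0.0154) and Atp6v1c1 (-0.015) in RPFs and Atp6v1b2 (-0.0066) in total RNA. On leaving out each replicate, RPF values ran from -0.0825 to 0.10 for Atp6v0d1 and -0.13 to 0.0097 for Atp6v1a. Total RNA values ran from -0.038 to 0.12 for Atp6v1b2, -0.12 to 0.0308 for Atp6v1c1 and -0.14 to 0.039 for Atp6v1h. Translational efficiency ran from -0.0292 to 0.16 for Atp6v0b and -0.13 to 0.0244 for Atp6v0d1. The cause was not tested. The list genes were put through the same alternatives after the data were seen. With at most 9621848 counts in a library, scarce genes such as Rogdi are imprecise.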
